A study of Mus musculus with 12 samples.

Results

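Bone marrow-derived macrophages given itaconic acid (IA) were compared with the same cells kept in medium alone (M), across all genes. The comparison takes 6 of the 12 libraries of the series, 3 of IA and 3 of M, chosen by the treatment written in the sample titles. The cells were wild type in every group and were grown in culture from mouse bone marrow. Itaconic acid was brought to 5 mM from a 50 mM stock in RPMI and left for 16 h, and M had no acid. The design text speaks of a pretreatment, and no later stimulus is named in the labels of these libraries. The groups given methylsuccinic acid (MetSA) and malonic acid (MA), also at 5 mM for 16 h, share the statistical fit and return at the end for direct comparison. The labels do not say if the acid stock was brought to neutral pH or if each replicate had its own donor mouse, so p-values measure the spread between these libraries, which may be partly technical.

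Itaconate is made in the mitochondria of activated macrophages by Acod1, a decarboxylase of cis-aconitate. It inhibits succinate dehydrogenase and can react with cysteine thiols, among them those of Keap1, which holds the antioxidant transcription factor NRF2 (gene Nfe2l2) in check. The title of the series names peroxiredoxin 5 (Prdx5), a peroxidase of mitochondria, peroxisomes and cytosol. Type I interferons act through a receptor of Ifnar1 and Ifnar2 and the kinases Jak1 and Tyk2. A complex with Stat2 and Irf9 then binds the interferon-stimulated response element (ISRE), while STAT dimers formed after interferon gamma bind the GAS element.

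The table held 32285 genes and 14113 had enough counts to be tested. Library totals ran from 46892488 to 54252486 counts. On the first principal component the IA libraries lay between 42.0 and 45.0 and the M libraries between -31.2 and -23.3. The macrophage markers Adgre1, Csf1r, Lyz2 and Cd68 were among the well-measured genes of both groups, and the summed level of 14 macrophage markers was 30399 to 33039 CPM (counts scaled by TMM-adjusted library size) in IA against 28515 to 30849 CPM in M. Of these 14 markers 9 were called higher and 1 lower, while their share of all counts was 2.84% to 3.06% in IA and 3.02% to 3.31% in M. Neutrophil markers summed to 64.6 to 104 CPM in IA against 64.8 to 101 CPM in M, and none of 9 tested was called. Markers of mast cells stayed below 1 CPM in sum in each library, and Cd3e, Cd8a and Ncr1 of the lymphocyte list were at 0 in all 6. The lymphocyte list summed to 25.8 to 36.4 CPM in IA against 16.6 to 19.8 CPM in M, with Cd4 called higher among 5 tested. Cd4 held most of that sum in each library.

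A gene was called at an adjusted p under 0.05 (edgeR's quasi-likelihood test, Benjamini-Hochberg adjustment over all tested genes). Of 14113 genes 4961, or 35.2%, were called. IA was higher for 2524 of them (17.9%) and lower for 2437 (17.3%), and the median log2 fold change over all tested genes was -0.03. The split depends on scaling, since the higher share of calls was 50.9% under TMM but 34.8% if libraries were scaled by their upper quartile. The 3 IA values and the 3 M values did not overlap for 47.7% of tested genes. Large changes were mostly rises. At 2-fold or more, 665 genes were higher (4.71%) and 462 lower (3.27%), together 7.99%. At 8-fold or more the counts were 111 higher and 14 lower, and at 16-fold or more 47 higher and 4 lower. Where a gene group moves, a change in the number of cells of one kind and a change in RNA per cell cannot be told apart in these bulk libraries.

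Of 19 tested kinases, STATs and interferon regulatory factors, which carry the interferon signal, 12 were higher and 2 lower, at a median of 0.41, and 5 were higher by 2-fold or more. Without IA replicate 3, 1 was lower. Irf7, the transcription factor that amplifies type I interferon production, had 1571, 1375 and 1477 CPM in IA against 77.6, 87.5 and 108 CPM in M. The lowest IA library was thus above the highest M library by an order of magnitude, at a log2 fold change of 4.02 with an SE of 0.30 (adjusted p = 7.78e-06). In mm10 the gene lies on the minus strand of chromosome 7 from 141262706 to 141266481. Stat2, a subunit of the complex that binds the ISRE, averaged 841 ± 21.99 CPM in IA and 148 ± 12.6 CPM in M (SD, n = 3 each), a log2 fold change of 2.51 (SE 0.14). Irf1, a factor downstream of interferon gamma and of NF-kB, had 170, 207 and 193 CPM in IA against 68.4, 70.6 and 72.5 CPM in M. Its rise was 1.43 (SE 0.08), and the kinase Jak2 rose by 1.05 (SE 0.08). Irf3, which starts interferon transcription after nucleic acid sensing, was lower, at 22.02, 23.14 and 22.97 CPM in IA against 28.6, 27.9 and 33.8 CPM in M (log2 fold change -0.41, SE 0.08). The groups did not overlap for Irf3, but the change is small beside that of Irf7.

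The ligands and receptors gave a different picture. Ifnb1, the interferon beta gene, had 4, 8 and 4 counts in IA against 0, 2 and 0 counts in M, too few to be tested. The alpha interferons Ifna1, Ifna2, Ifna4 and Ifna5, as well as Ifng, Ifnl2 and Ifnl3, were at 0 in all 6 libraries, which allows up to 3 counts in each. Of 5 tested receptor chains 2 were higher and 1 lower. Il10rb, a chain shared by the lambda interferon and interleukin-10 receptors, rose by 0.27 (SE 0.07). Ifngr2, the partner of Ifngr1, rose by 0.15 (SE 0.05), a call that was lost with upper-quartile scaling, with no filter, and without IA replicate 1, IA replicate 2 or M replicate 1. Ifngr1 of the interferon gamma receptor was lower at 249.02, 257.66 and 269.74 CPM in IA against 342, 368 and 357 CPM in M (log2 fold change -0.46, SE 0.07). Neither chain of the type I receptor was called, at 0.14 for Ifnar2 and -0.01 for Ifnar1. Negative regulators of the pathway were higher. Usp18, which removes Isg15 and blocks the type I receptor, averaged 130 ± 8.96 CPM in IA and 16.5 ± 4.06 CPM in M, a rise of 2.98 (SE 0.21). Socs1, an inhibitor of JAK kinases, rose by 2.00 (SE 0.26), at 2.88 ± 0.273 CPM in IA and 0.717 ± 0.206 CPM in M. Of 13 tested feedback genes 8 were higher and none lower, and 4 were higher with upper-quartile scaling.

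Interferon-stimulated effector families rose almost as a whole. Together the families listed here held 112 genes, and 99 of the 104 tested were higher and 1 lower, at a median log2 fold change of 2.25. They took 3.89%, 4.17% and 4.18% of all counts in IA libraries against 1.03%, 1.13% and 1.21% in M libraries. The ratio of the means was 3.62, with an exact two-sided permutation p of 0.1, the smallest that 3 against 3 libraries allow. All 6 members of the Ifit family, which bind viral RNA, rose at a median of 4.28. Ifit2 had 3225, 3735 and 3703 CPM in IA against 139, 165 and 197 CPM in M, a log2 fold change of 4.41 with an SE of 0.24 (adjusted p = 7.99e-07). No IA value came near an M value. Ifit1 rose by 3.36 (SE 0.19). Ifit3 and Ifit3b rose by 4.14 and 4.55 but share 32% and 28% of their sequence, so their counts are uncertain. Ifit1bl2, the member with the smallest rise at 1.25 (SE 0.28), stayed low at 2.21 ± 0.10 CPM in IA and 0.932 ± 0.10 CPM in M.

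All 10 tested members of the p200 family, DNA-binding proteins encoded beside the inflammasome sensor Aim2, were higher at a median of 3.26. Their rises were not uniform. Ifi207 averaged 1155 ± 43.3 CPM in IA and 439 ± 35.5 CPM in M and rose by 1.40 (SE 0.07). Ifi213 had 199, 172 and 199 CPM in IA against 7.03, 9.45 and 12.0 CPM in M, a rise of 4.32 (SE 0.28), and Ifi205 rose by 4.37 (SE 0.30). Neighbours in this family thus rose by unequal folds. Aim2 itself rose by 1.09 (SE 0.08).

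The GTPase families that act on the vacuoles of intracellular pathogens rose in the same way. All 10 tested guanylate-binding proteins were higher at a median of 3.23. Gbp2 had 204.67, 280.44 and 251.37 CPM in IA against 19.3, 26.1 and 32.1 CPM in M, a log2 fold change of 3.25 (SE 0.23). Gbp9 and Gbp7 rose by 2.397 (SE 0.11) and 2.43 (SE 0.16). Of 11 tested immunity-related GTPase genes 10 were higher, at a median of 2.395. Irgm1, a regulatory member of that family, averaged 538 ± 35.5 CPM in IA and 102 ± 11.3 CPM in M, and rose by 2.395 (SE 0.08, adjusted p = 1.80e-13). Irgm2 and Igtp, its partners in guarding host membranes, rose by 2.32 (SE 0.08) and 2.53 (SE 0.11). Irgq was the member that was lower (-0.24, SE 0.08), a call that was lost without IA replicate 2, IA replicate 3 or M replicate 1. The Schlafen family had all 7 tested members higher at a median of 2.45. Slfn5, a nuclear member that restricts some viruses, had 1794, 2025 and 2014 CPM in IA against 452, 520 and 523 CPM in M, which is a rise of 1.96 (SE 0.09).

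Enzymes that make and attach antiviral signals were higher as well. Oas3, which makes oligoadenylates, had 1409, 1306 and 1396 CPM in IA against 185, 189 and 220 CPM in M (log2 fold change 2.79, SE 0.12). Of 9 tested genes in that group 7 were higher and none lower, with 1 lower under upper-quartile scaling. Isg15, a ubiquitin-like protein, had 165, 233 and 211 CPM in IA against 15.41, 20.04 and 21.94 CPM in M (3.41, SE 0.31). Its activating enzyme Uba7 rose by 1.64 (SE 0.12), its conjugating enzyme Ube2l6 by 1.79 (SE 0.09) and the ligase Herc6 by 2.64 (SE 0.10), the last with 21% shared sequence. All 7 ADP-ribosyltransferases and partners of the list were higher. Parp14, a mono-ADP-ribosyltransferase, averaged 1669 ± 95.1 CPM in IA and 493 ± 34.1 CPM in M (1.76, SE 0.09). Of 38 tested restriction factors and other antiviral effectors 36 were higher and none lower, at a median of 1.87. Phf11a, a zinc finger gene, rose by 3.80 (SE 0.20), and Sp100, a nuclear body protein, by 1.83 (SE 0.08).

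All 19 tested sensors and adaptors of nucleic acid recognition were higher, at a median of 1.19, and 18 were with upper-quartile scaling, with no filter, and in each leave-one-out fit but that without IA replicate 2. The endosomal receptors differed in size of response. Tlr9, the receptor for unmethylated DNA, had 324, 322 and 356 CPM in IA against 91.4, 93.6 and 89.2 CPM in M, a rise of 1.87 (SE 0.10). Tlr3, the receptor for double-stranded RNA, rose by 2.11 (SE 0.07) at 100 ± 5.86 CPM in IA and 23.3 ± 0.26 CPM in M. Tlr7, which binds single-stranded RNA, averaged 605 ± 13.99 CPM in IA and 264 ± 10.2 CPM in M, and rose by 1.19 (SE 0.06). Among Toll-like receptors and adaptors in general 18 of 23 tested genes were higher and none lower, at a median of 0.55. Cd180, a relative of Tlr4 on the cell surface, rose by 1.27 (SE 0.07), and the adaptor Myd88 by 0.74 (SE 0.06).

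Promoters are shown for genes of the interferon group that differ in how the ISRE letters are placed. The windows are the RefSeq ones of 300 bases, with 250 bases before the transcript start and 50 after it, on GRCm38.p6. Capitals mark matches to the ISRE letters, GAAA and GAAA parted by NN, on either strand, and in the Irf1 window matches to the GAS letters TTCNNNGAA. Isg15 (chr4:156200769-156201068, minus strand) holds 3 overlapping matches that begin about 79, 73 and 67 bases before the start. Ifit3 and Ifit1 (plus strand, chr19:34583279-34583578 and chr19:34640639-34640938) hold 2 each. Cxcl10 (chr5:92348840-92349139, minus strand) holds 1 at about 214 bases, and Irf1 (chr11:53769764-53770063, plus strand) holds 1 GAS match at about 91 bases.
Isg15: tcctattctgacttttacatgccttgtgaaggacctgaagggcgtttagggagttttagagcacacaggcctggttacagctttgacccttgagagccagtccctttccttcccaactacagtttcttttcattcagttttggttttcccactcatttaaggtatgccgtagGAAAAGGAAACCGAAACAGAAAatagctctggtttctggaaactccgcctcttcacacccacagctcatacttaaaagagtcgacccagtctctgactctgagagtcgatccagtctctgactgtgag
Ifit3: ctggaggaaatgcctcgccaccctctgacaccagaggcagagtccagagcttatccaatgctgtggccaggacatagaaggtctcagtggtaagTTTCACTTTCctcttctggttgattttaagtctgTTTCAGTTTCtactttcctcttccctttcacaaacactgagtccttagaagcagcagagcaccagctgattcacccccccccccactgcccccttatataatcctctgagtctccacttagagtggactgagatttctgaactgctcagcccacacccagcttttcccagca
Ifit1: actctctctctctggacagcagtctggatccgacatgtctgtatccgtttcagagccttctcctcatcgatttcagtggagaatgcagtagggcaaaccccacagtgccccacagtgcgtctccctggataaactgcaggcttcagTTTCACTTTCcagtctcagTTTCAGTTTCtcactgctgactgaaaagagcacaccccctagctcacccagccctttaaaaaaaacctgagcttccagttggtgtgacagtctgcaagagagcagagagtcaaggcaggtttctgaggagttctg
Cxcl10: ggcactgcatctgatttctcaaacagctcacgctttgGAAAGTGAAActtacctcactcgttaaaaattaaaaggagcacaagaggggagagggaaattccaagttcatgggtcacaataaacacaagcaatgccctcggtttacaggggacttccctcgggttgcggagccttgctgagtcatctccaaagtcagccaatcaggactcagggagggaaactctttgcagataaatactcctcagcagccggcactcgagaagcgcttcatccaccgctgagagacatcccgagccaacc
Irf1: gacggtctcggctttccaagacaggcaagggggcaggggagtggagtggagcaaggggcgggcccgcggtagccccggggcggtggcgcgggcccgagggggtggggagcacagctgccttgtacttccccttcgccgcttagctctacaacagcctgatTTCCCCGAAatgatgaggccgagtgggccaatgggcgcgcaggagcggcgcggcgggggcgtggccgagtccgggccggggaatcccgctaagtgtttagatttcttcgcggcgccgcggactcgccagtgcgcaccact

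Counted over all windows, 10641 tested genes had an entry. The ISRE letters stood in 49 of 86 interferon-family genes (57.0%). They stood in 94 of 486 genes that were higher by 2-fold or more (19.3%) and in 25 of 80 that were higher by 8-fold or more (31.2%). Among genes lower by 2-fold or more the share was 8 of 316 (2.53%), against 2.99% of genes not called and 3.98% of all tested genes. The GAS letters stood in 14.4% of genes higher by 2-fold or more and in 8.27% of all tested genes. A match describes letters in a short window and is no evidence of binding, and most genes that were higher by 2-fold held no ISRE match there.

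**Figure D1:**
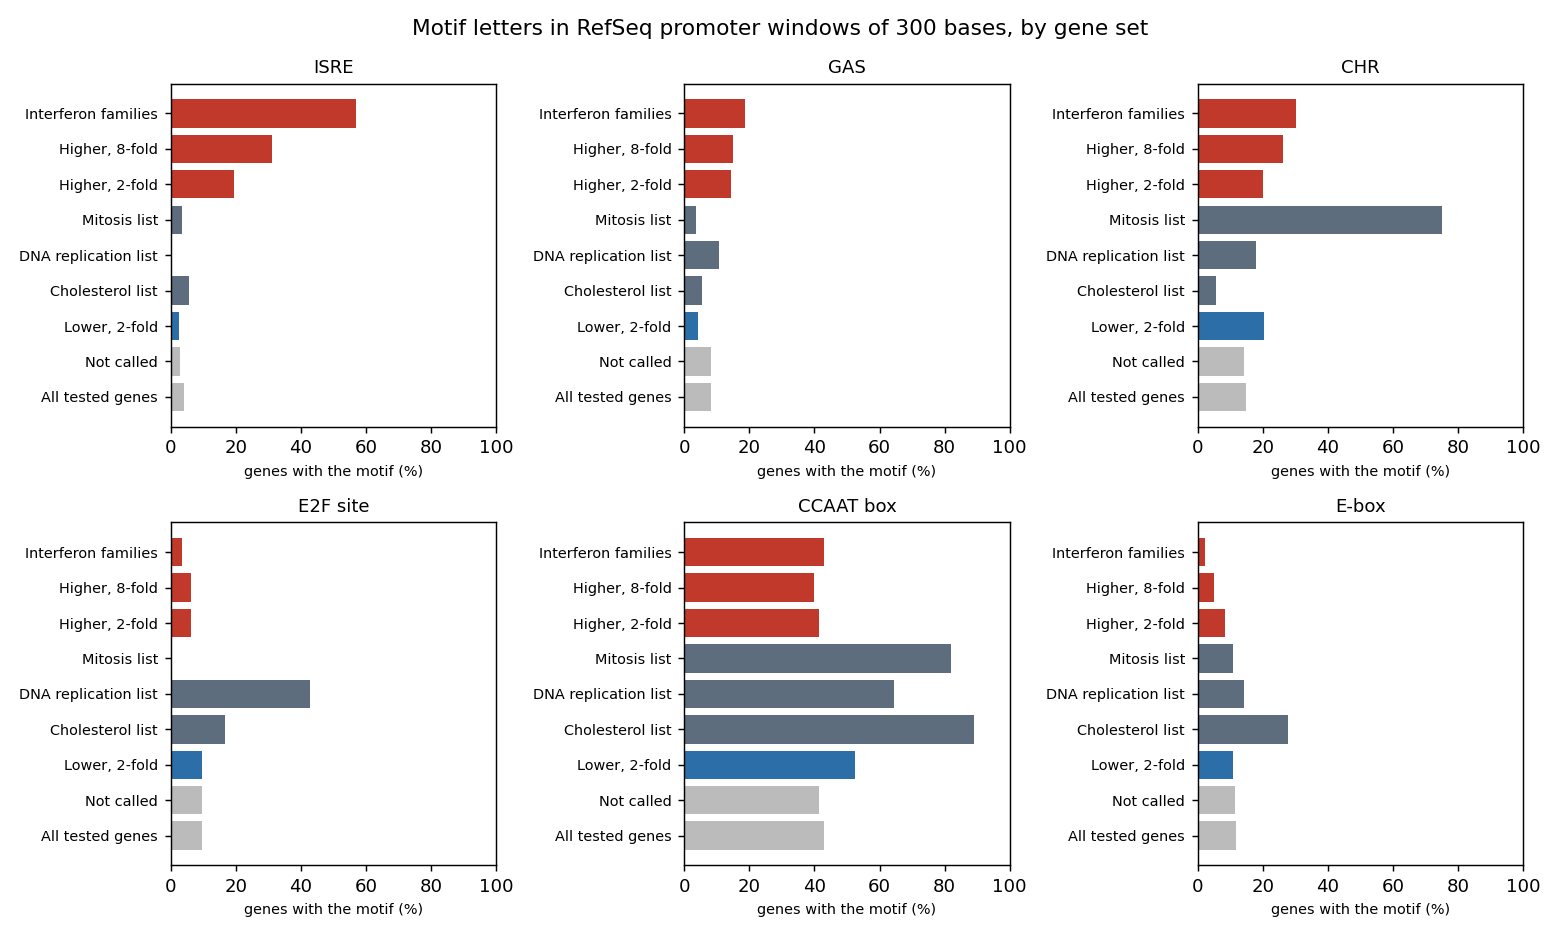
Share of genes (x axis, percent) whose RefSeq promoter window of 300 bases holds each motif on either strand, by gene set. The ISRE bar is longest for interferon-family genes (57.0%), against 2.53% of genes lower by 2-fold or more, 3.98% of all tested genes and 0 of 28 DNA replication genes. The CHR bar is longest for the mitosis list (75.0%) and the CCAAT bar for the cholesterol list (88.9%).

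Some of the genes that rose lay side by side on the chromosomes. Neighbouring tested genes that were all called in one direction with a change of 2-fold or more formed 19 runs of 4 or more genes, 18 of them higher and 1 lower, with 116 genes in all. The higher runs held 112 of the 665 genes that were higher by 2-fold or more, and Irf7 and Tnfsf8 are in none. The longest was on chromosome 1 from 173350879 to 174044411 and held 12 genes, Aim2 and the p200 genes among them, with log2 fold changes from 1.09 to 5.03. Other runs held known clusters, namely 11 genes from Irgm1 to Olfr1396 on chromosome 11, 6 Ifit genes on chromosome 19, 5 guanylate-binding protein genes each on chromosomes 3 and 5, and 7 genes of the Trim30 region on chromosome 7. Some runs joined genes that are less often named with this response. On chromosome 3 from 59005825 to 59318682 a run of 5 held the nucleotide receptor genes P2ry12, P2ry13 and P2ry14, the orphan receptor gene Gpr171 and Med12l, whose body spans them. P2ry14, a receptor for UDP-sugars, had 43.1, 44.3 and 53.5 CPM in IA against 9.37, 11.8 and 10.6 CPM in M (2.15, SE 0.12). On chromosome 6 the natural killer receptor genes Klra2 (2.62, SE 0.16) and Klrk1 (2.12, SE 0.41) rose, at 13.8 ± 0.65 and 2.29 ± 0.32 CPM in IA against 2.24 ± 0.57 and 0.522 ± 0.42 CPM in M. Copies that share sequence and genes that overlap on opposite strands can pass reads to one another within such runs, since the labels give no strand.

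**Figure D2:**
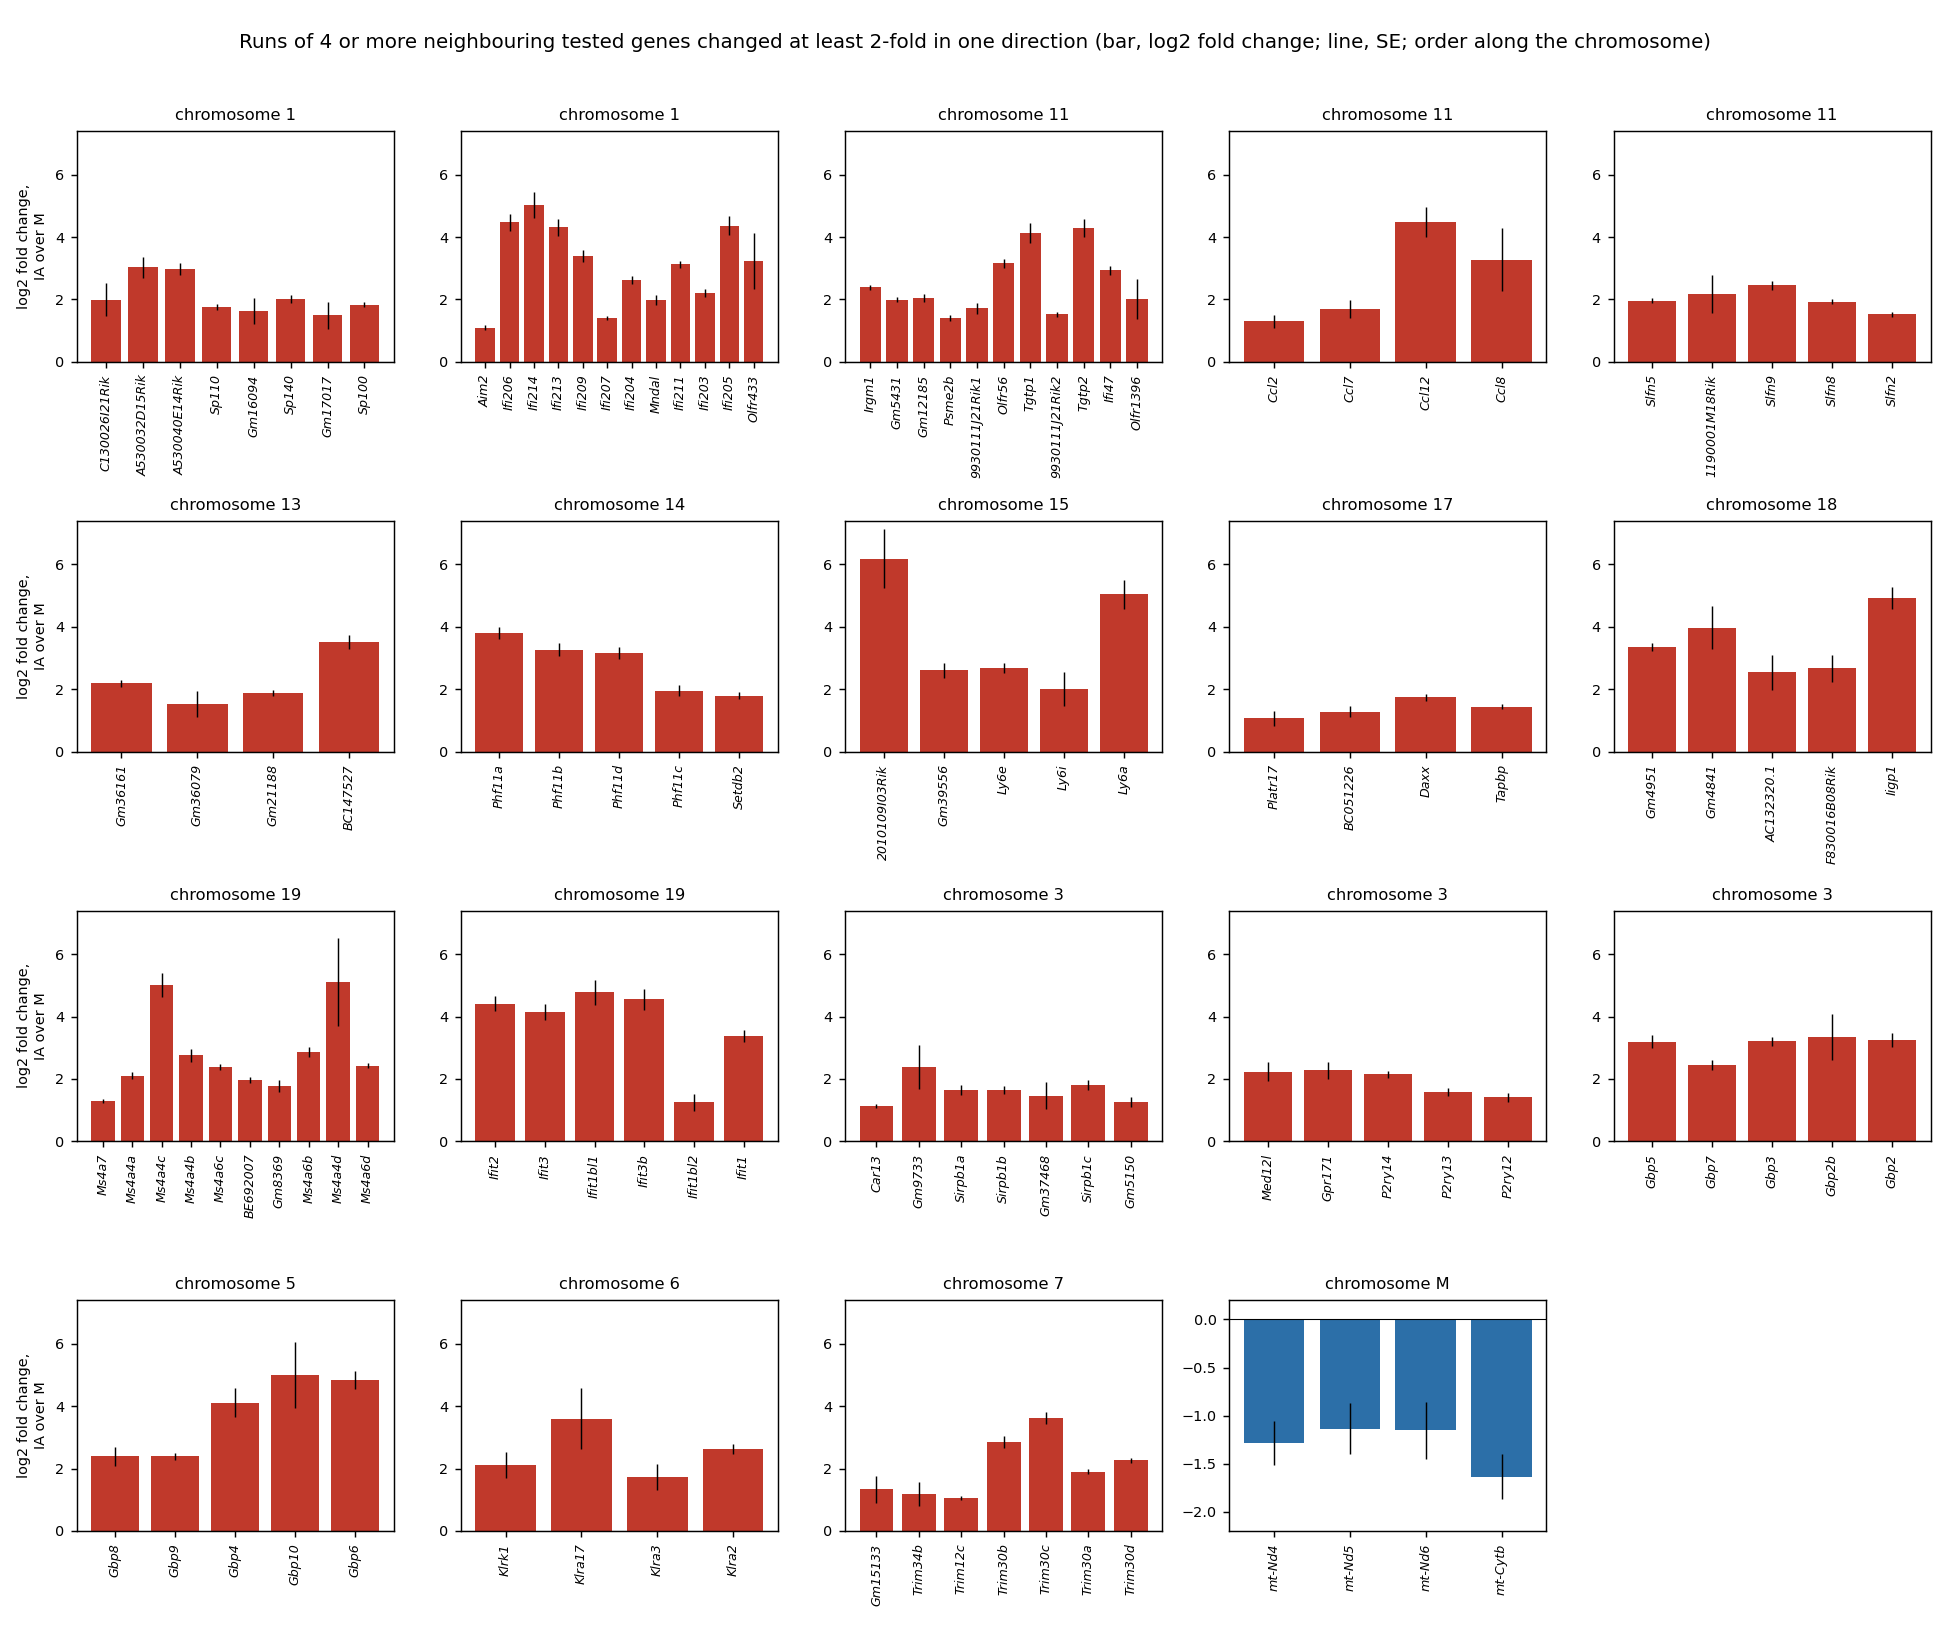
Log2 fold change of IA over M (y axis; line, SE) for each gene of the 19 runs of neighbouring tested genes, in their order along the chromosome. The 18 runs of higher genes are in red, and the 1 run of lower genes, on the mitochondrial chromosome (M), is in blue on its own scale. For genes with at most 2 counts in M in all, namely Gbp10, Ms4a4d and 2010109I03Rik, the plotted size depends on the fitted prior and is no measured fold.

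Surface proteins of the Ms4a and Ly6 families, whose members mark myeloid and other blood cells, rose with few exceptions. Of 12 tested Ms4a genes 9 were higher and none lower, at a median of 2.397. Ms4a4c had 480, 427 and 496 CPM in IA against 9.87, 14.98 and 18.8 CPM in M, a log2 fold change of 5.00 with an SE of 0.39 (adjusted p = 1.06e-05). Ms4a6d averaged 497 ± 34.2 CPM in IA and 93.2 ± 7.51 CPM in M (2.42, SE 0.08). Ms4a4d had 0.256, 0.357 and 0.295 CPM in IA and a single count over the 3 M libraries. All 4 tested Ly6 genes were higher. Ly6e, a restriction factor for some viruses, had 2904, 2224 and 2805 CPM in IA against 348, 411 and 491 CPM in M (2.67, SE 0.16).

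Antigen presentation genes rose throughout the class I list, but not throughout class II. All 21 tested genes of MHC class I, peptide loading and the immunoproteasome were higher, at a median of 1.41. Tap1, one chain of the peptide transporter, had 368, 364 and 366 CPM in IA against 100, 99.1 and 106 CPM in M (1.85, SE 0.09). The loading factors Tapbp and Tapbpl rose by 1.43 (SE 0.08) and 1.502 (SE 0.08). Of 11 tested class II genes 3 were higher and 1 lower, a share of calls near the 35.2% of all genes. Their median was -0.10, or 0.20 without IA replicate 1 and 0.32 without M replicate 3. The one that was lower was Ciita, the class II transactivator, at 3.88, 4.66 and 4.54 CPM in IA against 7.39, 8.09 and 8.83 CPM in M (-0.89, SE 0.18). The invariant chain gene Cd74 was not called, at 108, 126 and 146 CPM in IA against 131, 173 and 197 CPM in M, with overlapping groups. The number of class II genes called lower was 5 with the replicate block or with no filter on low counts, and 2 without M replicate 1.

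Chemokine genes rose in part. Of 12 tested CC chemokines 7 were higher and none lower, at a median of 1.09, and of 11 CXC chemokines 4 were higher and 1 lower, at 0.14. Cxcl10, a ligand of Cxcr3 on T cells, had 112, 200 and 156 CPM in IA against 7.69, 10.6 and 14.4 CPM in M, so the IA libraries were spread widely but all stayed above M (3.84, SE 0.34). Cxcl9, another ligand of that receptor, rose by 3.17 (SE 0.49) at 4.16 ± 0.76 CPM in IA and 0.458 ± 0.15 CPM in M. Ccl5, an attractant of T cells and monocytes, had 35.5, 30.9 and 23.7 CPM in IA against 1.29, 1.19 and 2.14 CPM in M (4.29, SE 0.50). Ccl12 and Ccl7, monocyte attractants encoded beside Ccl2, rose by 4.49 (SE 0.49) and 1.70 (SE 0.29). In the opposite direction, Cxcl2, a neutrophil attractant, fell by 1.02 on the log2 scale (SE 0.16). The CXC genes called lower numbered 3 with upper-quartile scaling, and 2 with halved counts or without IA replicate 2 or IA replicate 3. Of 14 tested chemokine and formyl peptide receptors 9 were higher, with Ccr2, the receptor for Ccl2, at 523, 509 and 606 CPM in IA against 207, 261 and 212 CPM in M (1.27, SE 0.12).

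Cytokine genes did not move as one group. Of 18 tested, 10 were higher and 1 lower, at a median of 0.99. The death ligand Tnfsf10 (TRAIL) had 53.96, 72.3 and 68.7 CPM in IA against 4.93, 4.72 and 6.78 CPM in M (3.57, SE 0.20). Tnfsf8, the ligand of CD30, is outside that list and averaged 17.8 ± 2.71 CPM in IA and 0.643 ± 0.385 CPM in M (4.78, SE 0.37). Il15, a growth factor of natural killer and T cells, rose by 1.41 (SE 0.08), and Csf1, the macrophage growth factor, by 1.93 (SE 0.17). Il1b had 15.4, 16.4 and 18.4 CPM in IA against 3.95, 6.87 and 6.27 CPM in M (1.55, SE 0.20). Tnf, by contrast, had 23.7, 22.2 and 20.4 CPM in IA against 21.007, 20.04 and 20.48 CPM in M, with overlapping groups, and was not called (0.11, SE 0.09, adjusted p = 0.364). Il6 had 3, 0 and 0 counts in IA against 0, 0 and 8 counts in M. Tgfb1 was lower at 234 ± 12.8 CPM in IA and 305 ± 15.02 CPM in M (-0.38, SE 0.06). Of 20 tested NF-kB subunits, inhibitors and feedback genes 6 were higher and 2 lower, at a median of 0.05. There was 1 lower with DESeq2 size factors, in each fit without an IA library, and without M replicate 2 or M replicate 3. Among these 20, Map3k8, a kinase upstream of ERK, rose by 0.61 (SE 0.08), and Nfkbid, an inhibitor-like protein, fell by 0.63 (SE 0.13). With upper-quartile scaling 7 of that group were lower. Its share of calls in the main fit was near the 35.2% of all genes.

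Genes of cell death and of the inflammasome were higher in 18 of 23 cases and lower in none, at a median of 0.48. With upper-quartile scaling 2 were lower. Mlkl, the pore protein of necroptosis, had 59.0, 62.7 and 63.5 CPM in IA against 15.4, 15.8 and 16.9 CPM in M (1.95, SE 0.09). Casp4 (caspase-11 of the mouse) and Casp1, which cut gasdermin D, rose by 1.19 (SE 0.11) and 0.76 (SE 0.08). Nlrp3 rose less, at 130 ± 9.08 CPM in IA and 107 ± 7.59 CPM in M (0.28, SE 0.07). The survival gene Mcl1 averaged 1438 ± 20.7 CPM in IA and 879 ± 35.4 CPM in M, a rise of 0.71 (SE 0.05).

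Receptors on the macrophage surface rose in several groups. Fcgr4, an activating receptor for IgG2, had 295, 287 and 325 CPM in IA against 26.4, 41.2 and 45.8 CPM in M (3.00, SE 0.20, adjusted p = 2.398e-06). The inhibitory Fcgr2b rose by 0.73 (SE 0.07), and 5 of 7 tested Fc receptor genes were higher. The checkpoint ligand Cd274 (PD-L1) had 75.4, 82.9 and 65.3 CPM in IA against 13.6, 12.3 and 14.1 CPM in M (2.48, SE 0.13). Lgals9 (galectin-9) rose by 1.94 (SE 0.09) and its receptor Havcr2 (TIM-3) by 1.13 (SE 0.07). In the costimulatory and checkpoint list 11 of 17 tested genes were higher and 1 lower. None was lower without IA replicate 2, IA replicate 3, M replicate 1 or M replicate 2. The same held with DESeq2 size factors and with IA and M libraries alone, while 2 were lower with upper-quartile scaling. Treml2, a TREM-like receptor, had 45.8, 32.1 and 38.2 CPM in IA against 2.46, 2.11 and 3.13 CPM in M (3.91, SE 0.34). In the list of TREM, Siglec and related receptors 13 of 24 tested genes were higher and none lower, with Cd300lf at 2.38 (SE 0.15) and Cd22 at 1.63 (SE 0.15). Of 18 tested complement genes 11 were higher and 1 lower, at a median of 0.46. There were 2 lower with upper-quartile scaling, no filter, the replicate block or without IA replicate 2. C4b rose by 3.41 (SE 0.26), with 16% shared sequence, and the C1q chain genes C1qa and C1qb by 0.58 (SE 0.09) and 0.51 (SE 0.06). The exception was Itgax, the CD11c chain of complement receptor 4, at 16.0, 21.2 and 19.1 CPM in IA against 44.8, 40.7 and 39.0 CPM in M (-1.15, SE 0.13).

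**Figure D3:**
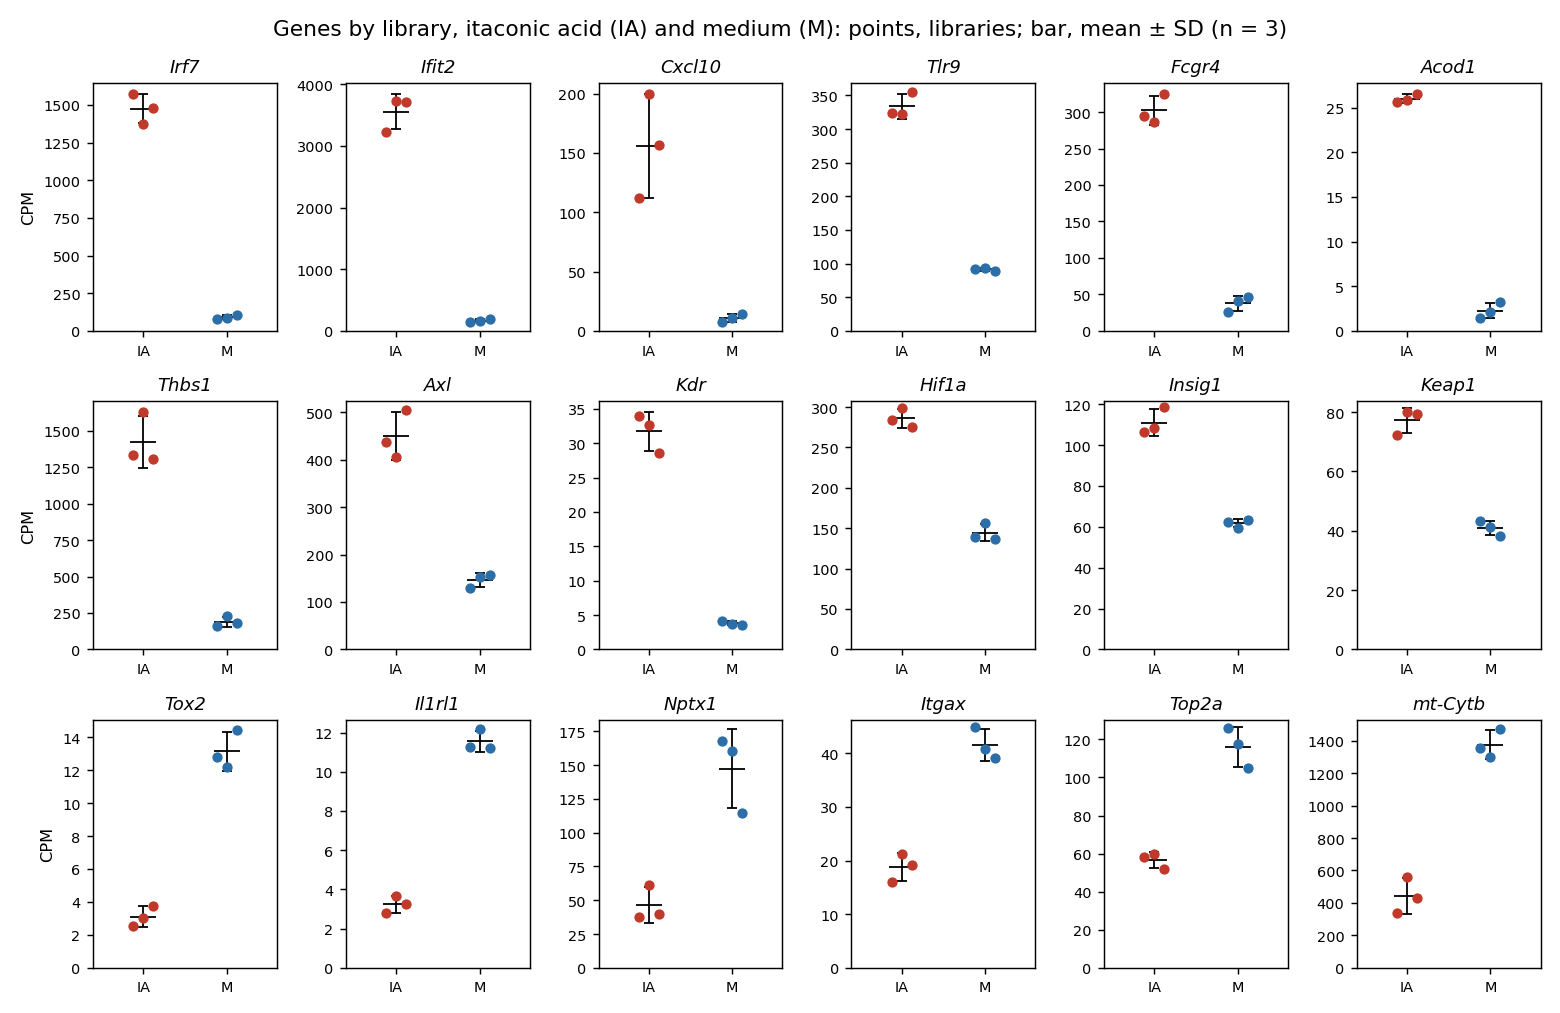
Level (y axis, CPM, each axis from 0) of 18 genes in the 3 IA libraries (red, left) and the 3 M libraries (blue, right), with the mean and SD. The 12 genes of the upper rows are higher in IA and the 6 of the lowest row are lower, and in no panel do the groups overlap. For Tox2, Il1rl1, Nptx1 and mt-Cytb this was a condition of their choice.

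Genes for uptake of dead cells and for matrix moved in both directions, in lists whose calls are to be set beside the 35.2% of all genes that were called. Axl, a receptor for apoptotic cells, had 438, 405 and 505 CPM in IA against 129, 152 and 157 CPM in M (1.62, SE 0.12), and the crosslinking enzyme Tgm2 rose by 1.49 (SE 0.07). The hemoglobin scavenger receptor Cd163 was lower at 12.99, 21.1 and 17.8 CPM in IA against 34.3, 36.8 and 37.9 CPM in M (-1.07, SE 0.19), and the mannose receptor Mrc1 fell by 0.46 (SE 0.09). Of 20 tested uptake genes 7 were higher and 2 lower. There were 4 lower without IA replicate 2 or with IA and M libraries alone, and 5 with no filter. Of 18 tested genes linked to alternative activation 3 were higher and 5 lower, at a median of -0.19. Thbs1 (thrombospondin-1), a matrix protein, had 1337, 1631 and 1308 CPM in IA against 161, 226 and 182 CPM in M (2.91, SE 0.21). It lies on the plus strand of chromosome 2 from 118111876 to 118127133 in mm10. The collagenase Mmp13 rose by 2.29 (SE 0.16) and the membrane protease Mmp14 by 1.32 (SE 0.10). Pmepa1 and Skil, feedback genes of TGF-beta signalling, rose by 1.84 (SE 0.19) and 1.05 (SE 0.07), with Skil at 318 ± 11.2 CPM in IA and 153 ± 12.1 CPM in M. Over the TGF-beta and BMP list 6 of 24 were higher and 2 lower at a median of 0.03, with 4 lower under upper-quartile scaling and 1 without IA replicate 1, IA replicate 3 or M replicate 1.

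Some genes known from other cell types were among the rises. Kdr (VEGF receptor 2), an endothelial gene of the stromal marker list, had 34.0, 32.6 and 28.6 CPM in IA against 4.11, 3.70 and 3.57 CPM in M (3.06, SE 0.27). The endothelial cadherin Cdh5 rose by 2.15 (SE 0.27) at 2.55 ± 0.06 CPM in IA and 0.573 ± 0.21 CPM in M. The collagen genes Col1a1, Col1a2 and Col3a1 of the same list were not called (-0.40, -0.32 and -0.19), and the list summed to 48.1 to 56.8 CPM in IA against 14.2 to 40.9 CPM in M. Kdr alone held 28.6 to 34.0 CPM of the IA sums and 3.57 to 4.11 CPM of the M sums. The higher sums thus do not describe the list as a whole, whose median log2 fold change was -0.19. Xcr1, a chemokine receptor of cross-presenting dendritic cells, had 4.56, 5.08 and 4.94 CPM in IA against 0.161, 0.241 and 0.267 CPM in M (4.42, SE 0.28). Of the 9 dendritic markers Siglech was also called higher, a call lost in each leave-one-out fit but that without M replicate 3, and Clec9a and Zbtb46 were not called (0.58 and 0.08). The dendritic list summed to 8.30 to 10.6 CPM in IA against 2.72 to 5.10 CPM in M. Of these sums Xcr1 alone held 4.56 to 5.08 CPM in IA and 0.161 to 0.267 CPM in M. Cd4, a T cell gene also found on some macrophages, rose by 0.94 (SE 0.12), while Cd3e was at 0. The part of such cells in the results was not tested.

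Of 12 tested genes listed under itaconate metabolism and transport 2 were higher and 2 lower, at a median of -0.06, a share of calls near that of all genes. The 2 higher were Acod1 and Irgm1. Irgm1 is the immunity-related GTPase gene counted above and no itaconate enzyme or transporter, so Acod1 was the only rise of that kind. With upper-quartile scaling 5 of the list were lower. Acod1 had 25.6, 25.9 and 26.5 CPM in IA against 1.49, 2.09 and 3.19 CPM in M, a log2 fold change of 3.52 with an SE of 0.26 (adjusted p = 7.73e-07). The IA values are close together and all M values are far below. Prdx5 had 199, 211 and 210 CPM in IA against 115, 113 and 131 CPM in M (0.79, SE 0.08), with 19.1% of its exonic bases overlapped by another gene. Of 23 tested redox enzymes 4 were higher and 5 lower, at a median of -0.03, and Gpx1, a glutathione peroxidase, was lower at 306, 324 and 318 CPM in IA against 438, 484 and 534 CPM in M (-0.62, SE 0.07). Keap1 had 72.2, 80.1 and 79.3 CPM in IA against 43.3, 41.1 and 38.4 CPM in M (0.92, SE 0.08). Nfe2l2 was not called (0.09, SE 0.06, adjusted p = 0.274), and of 28 tested genes of the NRF2 pathway 4 were higher and 5 lower, at a median of 0.03. Nqo1, a common readout of that pathway, had 1.30, 2.22 and 1.31 CPM in IA against 2.34, 1.72 and 2.04 CPM in M, with overlapping groups (-0.33, SE 0.24, adjusted p = 0.314). Txnrd1, a thioredoxin reductase, fell by 0.51 (SE 0.08). The shares of calls in the redox and NRF2 lists were also near the 35.2% of all genes. Cybb, the catalytic subunit of the phagocyte NADPH oxidase, averaged 2606 ± 176 CPM in IA and 1342 ± 139 CPM in M, and rose by 0.96 (SE 0.07).

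Nitric oxide and amino acid enzymes were partly higher. Nos2, the inducible nitric oxide synthase, had 0.596, 1.27 and 0.675 CPM in IA and a single count over the 3 M libraries. Gch1, which starts synthesis of its cofactor, had 37.9, 39.2 and 37.8 CPM in IA against 15.6, 17.8 and 18.5 CPM in M (1.14, SE 0.09). Ass1, which regenerates arginine, rose by 2.34 (SE 0.12), with 39% shared sequence. Srm, the spermidine synthase, was lower at 7.13, 8.21 and 6.50 CPM in IA against 16.6, 14.9 and 15.2 CPM in M (-1.09, SE 0.13). Psat1, an enzyme of serine synthesis, averaged 11.5 ± 1.78 CPM in IA and 26.8 ± 1.62 CPM in M (-1.23, SE 0.12).

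Lists of central carbon metabolism held calls in both directions, with medians near 0. For scale, 35.2% of all genes were called. Of 27 tested TCA cycle and succinate dehydrogenase genes 3 were higher and 8 lower, at a median of -0.01. There were 5 lower without IA replicate 3, 1 higher without M replicate 2 and none higher with upper-quartile scaling. Sdha, the catalytic subunit of succinate dehydrogenase, was not called at 247 ± 6.16 CPM in IA and 231 ± 1.85 CPM in M (0.10, SE 0.06, adjusted p = 0.178). Idh2, the mitochondrial isocitrate dehydrogenase, was lower at 34.4, 37.8 and 37.4 CPM in IA against 65.3, 57.8 and 55.4 CPM in M (-0.70, SE 0.08). Hif1a, the hypoxia factor that succinate can stabilise as a protein, had 284, 299 and 275 CPM in IA against 139, 156 and 137 CPM in M (0.99, SE 0.07). Among its listed targets and glycolytic genes 10 of 32 were higher and 6 lower, at a median of 0.04. Pfkfb3, which makes an activator of glycolysis, and the collagen hydroxylase P4ha1 rose by 1.07 (SE 0.06) and 1.03 (SE 0.07), whereas Ndrg1, another hypoxia-inducible gene, fell by 1.11 (SE 0.10). Of 42 tested nuclear genes of the respiratory chain and ATP synthase 1 was higher and 4 lower, at a median of -0.07, with 11 lower under upper-quartile scaling and 7 under the stricter filter, the replicate block or halved counts.

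Mitochondrially encoded mRNAs showed falls. Of 12 tested 6 were lower and none higher, at a median of -1.05. The 6 were mt-Nd1, mt-Nd2, mt-Nd4, mt-Nd5 and mt-Nd6, subunits of complex I, and mt-Cytb of complex III. Apart from mt-Co1, each of the tested mitochondrial genes that were not called shares 96% or more of its sequence with copies elsewhere and is poorly measured. mt-Cytb had 340, 557 and 432 CPM in IA against 1353, 1301 and 1473 CPM in M (-1.63, SE 0.23, adjusted p = 0.000524). IA replicate 2 was the highest of its group for this gene and still lay far below the lowest M value. The gene was picked among called genes whose groups did not overlap, so its separation is no added result. mt-Co1, a subunit of complex IV with 31% shared sequence, was not called (-0.05). The call of mt-Nd6 was lost without IA replicate 1, IA replicate 3 or M replicate 3. Together these mRNAs took 0.673%, 0.811% and 0.786% of the counts in IA libraries against 1.21%, 1.15% and 1.36% in M libraries, with an exact two-sided permutation p of 0.1, the smallest possible. These RNAs carry short or no poly(A) tails in part, and how they passed poly(A) selection was not tested.

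Sterol genes rose together. Of 25 tested genes of cholesterol synthesis and SREBP2 targets 21 were higher and none lower, at a median of 0.64. Insig1, a brake on the same pathway, had 106, 108 and 119 CPM in IA against 62.1, 59.5 and 63.3 CPM in M, so the groups stood apart (0.85, SE 0.06). Idi1, an isomerase of the pathway, rose by 1.41 (SE 0.11), with 20% shared sequence. Of 18 tested LXR target and efflux genes 5 were higher and 1 lower, at a median of 0.05, a share of calls near the 35.2% of all genes. The one that was lower, Lpl (lipoprotein lipase), stood at 4682, 4992 and 4686 CPM in IA against 7976, 8393 and 8058 CPM in M (-0.77, SE 0.09). With no filter or with the replicate block 2 of the 18 were lower. The CCAAT letters, bound by NF-Y, stood in 16 of 18 sterol promoters with an entry (88.9%) against 42.8% of all tested genes. They also stood in 82.1% of mitosis and 64.3% of replication promoters, lists whose members were mostly lower. The sterol regulatory letters TCACNCCAC stood in 1 of 18 sterol promoters (5.56%) against 1.41% of all tested genes. The window of Hmgcs1, an early enzyme of the pathway (chr13:119690101-119690400, plus strand), is given with its 4 matches to CCAAT on either strand in capitals. The same window also holds the sterol regulatory letters, left in lower case, and is the 1 of 18 counted above.
Hmgcs1: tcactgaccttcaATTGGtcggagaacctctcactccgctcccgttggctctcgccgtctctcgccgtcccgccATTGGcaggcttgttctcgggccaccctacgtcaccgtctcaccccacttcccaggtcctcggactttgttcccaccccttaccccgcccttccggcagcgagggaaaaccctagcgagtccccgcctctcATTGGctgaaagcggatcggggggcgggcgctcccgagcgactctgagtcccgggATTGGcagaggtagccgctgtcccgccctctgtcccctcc

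Genes of cell proliferation were lower as groups. Of 34 tested mitosis genes 32 were lower and none higher, at a median of -1.18. Racgap1, needed for the cleavage of cells, had 10.8, 12.3 and 12.4 CPM in IA against 30.3, 26.8 and 32.7 CPM in M (-1.34, SE 0.11). The mitotic cyclin gene Ccnb1 averaged 6.40 ± 0.315 CPM in IA and 15.7 ± 0.67 CPM in M (-1.29, SE 0.11), with 28% shared sequence. Mitosis genes took 0.0402% ± 0.0036 of the counts in IA and 0.0889% ± 0.0041 in M. Of 34 tested DNA replication genes 26 were lower and 1 higher, at a median of -0.60. None was higher with upper-quartile scaling or without IA replicate 1, IA replicate 3 or M replicate 1. The helicase subunit gene Mcm5 had 45.2, 50.6 and 38.8 CPM in IA against 96.4, 78.9 and 76.5 CPM in M (-0.90, SE 0.10), and Uhrf1, which maintains DNA methylation, fell by 1.19 (SE 0.11). Of 28 tested MYC and ribosome biogenesis genes 20 were lower and 2 higher, at a median of -0.44. The 2 were Max (0.55, SE 0.06), the partner of MYC, and Mxd1, which competes with MYC for Max, at 55.8, 64.2 and 56.0 CPM in IA against 26.7, 26.8 and 29.3 CPM in M (1.09, SE 0.09). Dkc1, a pseudouridine synthase of the nucleolus, fell by 0.90 (SE 0.10).

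The CHR letters TTTGAA, which mark many late cell cycle promoters, stood in 21 of 28 mitosis promoters (75.0%) against 14.7% of all tested genes. The E2F letters TTCCCGC stood in 12 of 28 replication promoters (42.9%) against 9.75%. The window of Cdc20, which drives the exit from mitosis (chr4:118437294-118437593, minus strand), shows the CHR match about 19 bases before the start in capitals.
Cdc20: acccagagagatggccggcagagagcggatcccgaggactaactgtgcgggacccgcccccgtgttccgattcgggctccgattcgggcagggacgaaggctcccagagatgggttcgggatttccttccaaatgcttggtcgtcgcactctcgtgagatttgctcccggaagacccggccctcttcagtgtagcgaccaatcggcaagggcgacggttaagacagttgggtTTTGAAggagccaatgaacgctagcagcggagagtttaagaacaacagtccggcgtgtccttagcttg

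**Figure D4:**
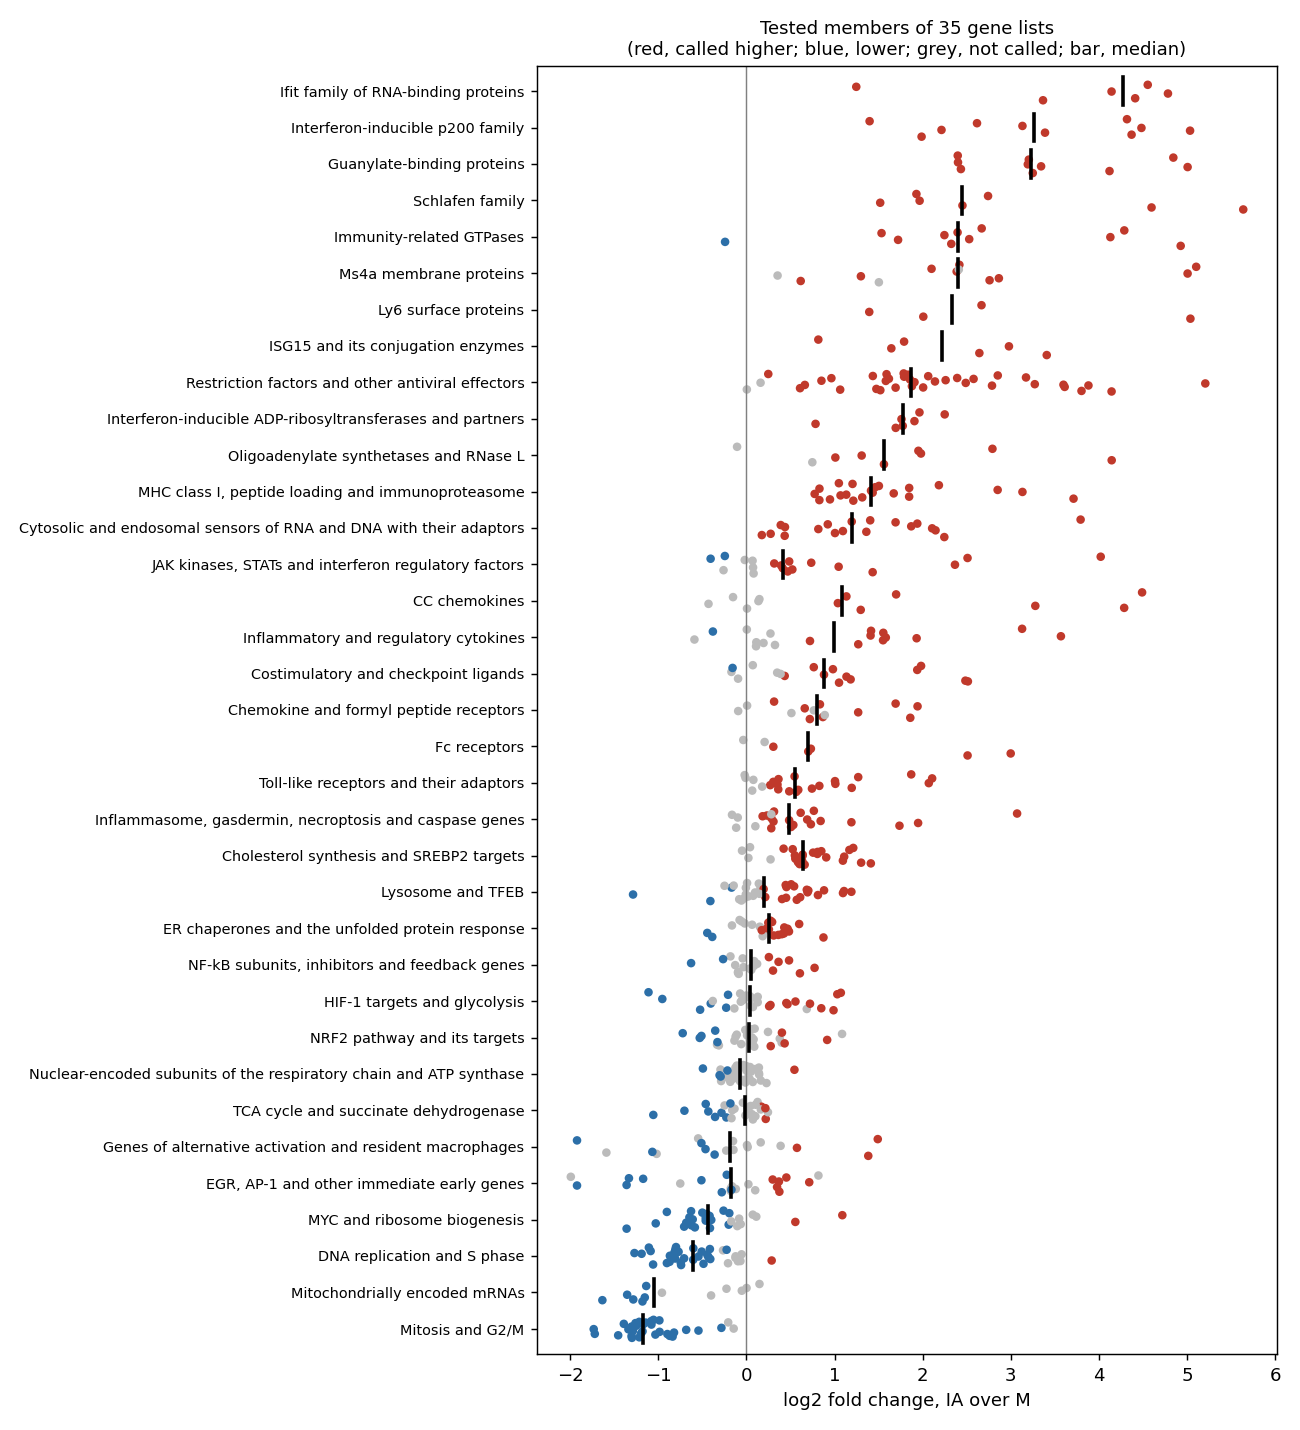
Log2 fold change of IA over M (x axis) for each tested member of 35 gene lists, with the median as a black bar. The Ifit list lies farthest to the right (median 4.28) and the mitosis list farthest to the left (median -1.18), while the lists for NRF2, the TCA cycle and the nuclear respiratory chain lie around 0.

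Stress and organelle lists moved by small amounts, and their calls are to be set beside the 35.2% of all genes. Of 26 tested chaperone and unfolded protein response genes 16 were higher and 2 lower, at a median of 0.25, with none lower without IA replicate 1 and 1 without IA replicate 3, M replicate 2 or M replicate 3. The median of that list was 0.16 with upper-quartile scaling. Calr, a chaperone of the endoplasmic reticulum, averaged 1460 ± 44.3 CPM in IA and 964 ± 41.5 CPM in M (0.60, SE 0.06). Of 32 tested ATF4 and integrated stress response genes 12 were higher and 7 lower, at a median of 0.28, or 0.17 without IA replicate 1. Of 35 tested lysosomal genes 18 were higher and 3 lower, at a median of 0.19, with Gla, an alpha-galactosidase, at 377, 341 and 336 CPM in IA against 164, 162 and 164 CPM in M (1.11, SE 0.08). With upper-quartile scaling or the stricter filter 5 of the lysosomal genes were lower. Tfeb, a factor that drives lysosomal genes, fell by 0.41 (SE 0.08). Of 24 tested p53 targets 11 were higher and 3 lower, at a median of 0.28.

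Large falls were also seen in genes of varied function. Tox2, a nuclear HMG-box protein, had 2.51, 3.01 and 3.78 CPM in IA against 12.8, 12.2 and 14.5 CPM in M (-2.08, SE 0.16, adjusted p = 7.85e-09). Il1rl1 (ST2), the receptor for interleukin-33, had 2.79, 3.67 and 3.27 CPM in IA against 11.2, 12.2 and 11.2 CPM in M (-1.83, SE 0.17). Nptx1, a secreted pentraxin, had 37.8, 61.5 and 40.0 CPM in IA against 168, 161 and 114 CPM in M (-1.67, SE 0.21). These 3 genes were picked among called genes whose groups did not overlap, as held for 47.7% of tested genes, so their separation is no added result. Cavin1, a coat protein of caveolae, fell by 1.54 (SE 0.12), the adaptor Dok2 by 1.10 (SE 0.07) and Bhlhe40, a transcriptional repressor, by 1.14 (SE 0.15). Some called genes averaged under 0.2 CPM in M. Of these, Flt4 (VEGF receptor 3) reached 2.73, 2.42 and 1.62 CPM in IA against 0.0403, 0.111 and 0.420 CPM in M, and Masp1, a protease of the lectin pathway, 1.38, 2.54 and 2.43 CPM in IA against 0.101, 0.111 and 0.248 CPM in M.

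The other acids show which of these changes differ from IA at a matched dose and time. Methylsuccinic acid has the carbon skeleton of itaconic acid without its carbon-carbon double bond, and malonic acid is a shorter dicarboxylic acid that inhibits succinate dehydrogenase. These 2 pairs were tested in the same fit, each adjusted over all genes. IA differed from MetSA in 864 genes (6.12%), 560 of them higher in IA (3.97%) and 304 lower (2.15%). Of the 4961 genes called against M, 766 (15.4%) also differed from MetSA, and of these 516 were higher in IA than in either group and 242 lower than in either. IA differed from MA in 4887 genes (34.6%), and 3217 of the 4961 (64.8%) were among them, 1711 higher and 1285 lower than in either group. The comparisons share the IA libraries, so their counts are not independent.

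In the interferon genes named here, IA stood nearer to MetSA than to MA. Ifit1bl1 and Pou3f1 were picked for large differences between IA and another acid, so the size of these is no added result. Ifit1bl1 averaged 311 ± 16.4 CPM in IA, 109 ± 36.2 CPM in MetSA, 2.80 ± 1.03 CPM in MA and 11.3 ± 5.23 CPM in M. The log2 difference was 1.505 from MetSA (SE 0.34, adjusted p = 0.0389) and 6.80 from MA (SE 0.46, adjusted p = 3.49e-06). Ifit2 stood 1.02 above MetSA (SE 0.21, adjusted p = 0.0274) and 5.17 above MA (SE 0.25). For Irf7 the difference from MetSA was 0.82 (SE 0.26) and was not called (adjusted p = 0.116), with MetSA replicate 3 at 519 CPM against 1077 and 909 CPM in MetSA replicates 1 and 2. Pou3f1, a POU-domain factor, averaged 11.8 ± 0.87 CPM in IA, 4.79 ± 2.01 CPM in MetSA, 0.315 ± 0.13 CPM in MA and 0.817 ± 0.13 CPM in M, and stood 1.31 above MetSA (SE 0.24, adjusted p = 0.00511).

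Genes outside the interferon group differed in which acids they told apart. Acod1 stood 1.20 above MetSA (SE 0.23, adjusted p = 0.0115) and 2.18 above MA (SE 0.24). Insig1 stood 0.28 above MetSA (SE 0.06, adjusted p = 0.00918) and 0.73 above MA (SE 0.06), with MA at 67.1 ± 3.03 CPM and M at 61.6 ± 1.96 CPM. Keap1 stood 0.33 above MetSA (SE 0.08, adjusted p = 0.0132) and 0.94 above MA (SE 0.08). Prdx5 was not called in either contrast, at 0.09 from MetSA (SE 0.08) and -0.18 from MA (SE 0.08). Hif1a was not called either (0.12 and -0.11, SE 0.07 each), with 263 ± 21.7 CPM in MetSA and 309 ± 7.68 CPM in MA. Thbs1 at 1036 ± 154 CPM in MetSA and 993 ± 242 CPM in MA lay below IA by differences that were not called (0.46 and 0.52, SE 0.20 each). Itgax was as low in MetSA (20.4 ± 4.28 CPM) as in IA within their spread and stood at 47.6 ± 2.58 CPM in MA. Tox2 stood 0.96 below MetSA (SE 0.17) and was not called against MA (-0.08, SE 0.17). A difference that was not called does not show that 2 acids act alike.

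**Figure D5:**
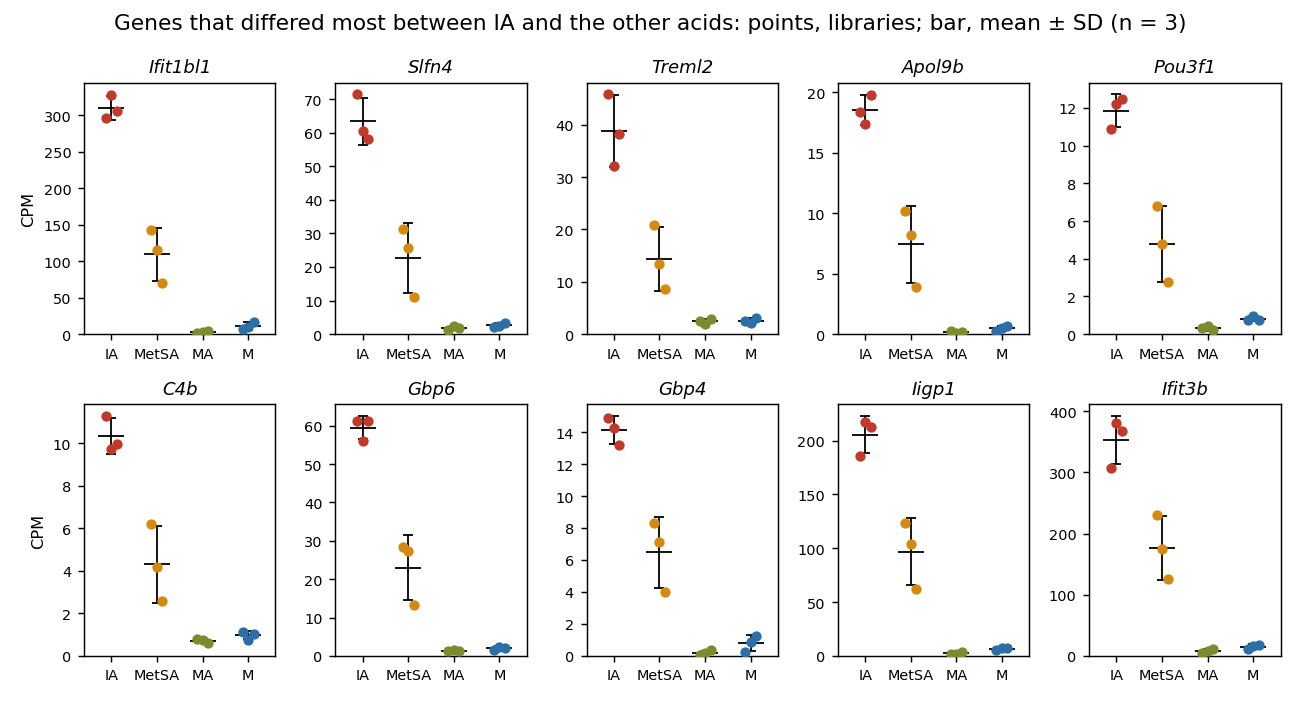
Level (y axis, CPM, each axis from 0) of 10 of the genes that differed most between IA and the other acids, in the 3 libraries of IA, MetSA, MA and M, with the mean and SD. Slfn1 and Ifi44 also rank among these genes and are not shown. IA is highest in each panel, MetSA lies between IA and M with its replicate 3 lowest of its group, and the MA means lie below those of M. The genes were picked for large differences between IA and MetSA or MA, so that IA stands apart is no added result.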

How the data were processed

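Poly(A) RNA-seq libraries of 12 mouse macrophage cultures, 4 groups of 3, were measured as counts per gene. The deposited counts came from STAR and featureCounts on mm10, per the submitters' processing notes, with versions and strand setting not given in the sources used here. Small counts were more often even than odd, and an alternative halved all counts. Genes were kept by edgeR's expression filter over the 12 libraries (14113 of 32285). They were scaled by TMM and fitted with edgeR 4.0.16 (R 4.3.3) in one quasi-likelihood model of 4 groups, adjusted by Benjamini-Hochberg at 0.05, with no covariate. CPM are TMM-scaled. Library totals of 46892488 to 54252486 counts set the counting precision, and replicates differed by more than counting error. The fit was tested on simulated data. Promoter windows came from RefSeq (GRCm38.p6).

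Genes named are the largest changes among called genes whose groups did not overlap. Others are list members with the smallest adjusted p, members against their list's median, key genes, genes of runs and those differing most between acids. The genes, lists and comparisons were chosen with earlier results of these data known. Alternatives were upper-quartile and DESeq2 size factors, DESeq2 1.42.0, other filters, IA and M libraries alone, a replicate block, halved counts and each replicate left out. Some genes are not reported here.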

Additional observations from a re-analysis of the deposited data

How the results depend on the processing

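The count of genes called between IA and M stayed within 1.5 times of 4961 under each alternative run, between 4071 and 5508, and between 4071 and 4458 when single replicates were left out. Of 424 named genes none changed sign and 32 lost their call in some setting. Most were named for large changes or small adjusted p in the main fit, and 419 were called there. That choice favours stable calls, so these counts do not describe all called genes. The count between IA and MetSA, 864, was less stable, at 1333 with DESeq2 and between 420 and 952 when single replicates were left out. With the replicate number as a block it was 1413, and between IA and M it was 5507 (2797 higher and 2710 lower). Same-numbered IA and M libraries deviated together weakly (r of 0.084, 0.056 and 0.063), and each library correlated best with its own number. The other pairings had r between -0.060 and -0.0048. The main fit did not use the number as a block, and its counts of calls are lower than those with it. Upper-quartile scaling gave 1918 higher and 3590 lower calls and a median over all genes of -0.12, so small falls depend on scaling. Halved counts gave 4952 calls. Genes with shared or overlapping sequence, and genes with a few counts, are the least certain.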
